A study of Homo sapiens with 6 samples.

Results

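Septins are GTP-binding cytoskeletal proteins that join end to end into rods and then into filaments, rings and cages beneath the plasma membrane and along actin and microtubules. They are grouped by homology into the SEPTIN2, SEPTIN3, SEPTIN6 and SEPTIN7 groups, and a rod takes its subunits from different groups, with SEPTIN7 the single member of its group that every canonical human rod contains. They are best known as scaffolds of the cleavage furrow in dividing cells, and also as diffusion barriers at the base of cilia and as supports of the cell cortex.

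The 9 septin genes described here, SEPTIN2, SEPTIN3, SEPTIN5, SEPTIN6, SEPTIN7, SEPTIN8, SEPTIN9, SEPTIN10 and SEPTIN11, were taken by gene ID from 17945 genes in the deposited table. The family was chosen with its differences between the groups already known, so the values of that comparison are given as a description without a test. RNA was sequenced from ARPE-19, a human retinal pigment epithelial cell line of wild-type genotype, as 3 libraries after 24 h with cinobufagin at 320 nM and 3 libraries after 24 h with the solvent DMSO. Cinobufagin is a bufadienolide, a toad venom steroid that inhibits the sodium pump. All libraries came from this 1 line, and nothing in the labels says that the libraries of a group were separate cultures, so p-values measure the spread among these samples alone, and that spread may be technical. Values are FPKM, fragments per length of transcript and per sequencing total, which can be set side by side between genes because they are per length. The sources used here give no read totals, so the depth is unknown.

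The summed FPKM was 538039 to 560721 over the DMSO libraries and 534694 to 545499 over the cinobufagin libraries. Pearson's r across genes, which are not independent replicates, was 0.996 to 0.997 for libraries of the same treatment and 0.962 to 0.963 across treatments. Of 10 retinal pigment epithelium markers, 6 reached 1 FPKM in at least 3 libraries. The summed level of all 10 was 102 to 107 FPKM after DMSO and 135 to 141 after cinobufagin. OTX2 and MITF, the most abundant of them, were higher after cinobufagin, whereas PMEL (2.04 ± 0.169 and 1.38 ± 0.159 FPKM, SD, n = 3 each), SERPINF1 (5.15 ± 0.612 and 3.62 ± 0.989) and TYR (1.03 ± 0.141 and 0.403 ± 0.0643) were lower. The transcription factor OTX2 was at 48.2 to 48.8 FPKM in DMSO libraries, whereas the visual cycle isomerase RPE65 was at 0 to 0.03 FPKM in all libraries and TTR was listed at 0 throughout. Of 5 epithelial markers, 3 reached 1 FPKM, and the sums of all 5 were 846 to 917 FPKM after DMSO and 679 to 692 after cinobufagin. EPCAM and CDH1 did not reach it, at 0 to 0.09 and 0 to 0.01 FPKM over all libraries. The keratins KRT8 and KRT18 were lower after cinobufagin, and the cadherin CDH2 was higher, at 95.5 ± 2.32 and 135 ± 3.88 FPKM. Of 5 neuronal markers, 3 were listed at 0 and only SYT1 reached 1 FPKM, and 0 of 4 blood cell markers in the table did. The summed neuronal level was 7.0 to 8.69 FPKM after DMSO and 8.13 to 8.34 after cinobufagin, and the summed blood level was 0.55 to 0.66 and 0.83 to 0.98 FPKM. The part of these differences in the septin values was not tested.

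Each of the 9 genes encodes the P-loop, the phosphate-binding stretch of the GTPase domain, once in its reading frame. The 24 coding bases are shown because all 9 members carry this motif, although their levels in these cells differ widely. They were read 5′ to 3′ from 1 coding transcript per gene in GENCODE 29, and the capitals mark the codons for the fixed glycine, and for the glycine, lysine and serine that close the motif. The genes are given in the order of the SEPTIN2, SEPTIN3, SEPTIN6 and SEPTIN7 groups.
SEPTIN2: GGTgaatcaggtctaGGAAAATCG
SEPTIN5: GGTgagtcaggcctgGGGAAGTCC
SEPTIN3: GGCcagagtggactgGGCAAATCA
SEPTIN9: GGGcagagcggcttgGGTAAATCC
SEPTIN6: GGAgagacaggtttgGGCAAGTCC
SEPTIN8: GGGgagaccggcattGGCAAATCC
SEPTIN10: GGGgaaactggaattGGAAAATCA
SEPTIN11: GGTgagacaggcattGGCAAATCC
SEPTIN7: GGTgaatctggattgGGAAAGTCG
The P-loop began at codon 44 in SEPTIN2 and at codon 305 in SEPTIN9, whose long form carries an extended N-terminal part. Over whole coding sequences, aligned bases were identical at 64.5% to 75.3% (median 71.0%) in the 8 pairs within a group and at 53.7% to 65.4% (median 57.3%) in the 28 pairs between groups. The ranges meet, since SEPTIN2 and SEPTIN7 of different groups shared 65.4% and SEPTIN2 and SEPTIN5 of the same group shared 64.5%. The closest pair was SEPTIN6 and SEPTIN11, at 75.3%.

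In DMSO-treated ARPE-19 cells a few septins held most of the family's transcripts. SEPTIN2, a filament subunit of the contractile ring, was the most abundant of the 9 at 246 ± 6.34 FPKM (SD, n = 3), followed by SEPTIN9 at 179.7 ± 5.65 and SEPTIN7 at 81.6 ± 2.58 FPKM. SEPTIN10, SEPTIN11, SEPTIN8 and SEPTIN6, all of the SEPTIN6 group, followed at 40.9 ± 1.57, 26.6 ± 1.61, 20.8 ± 0.139 and 6.75 ± 0.471 FPKM. SEPTIN5, known from neurons and platelets for a role in exocytosis, was at 3.48 ± 0.0850 FPKM, and the brain-enriched SEPTIN3 was at 0.457 ± 0.177 FPKM. In both treatments the order of the 9 genes was the same, and the 3 values of each gene lay wholly above those of the next gene in the order. The narrowest step in DMSO was from SEPTIN11 to SEPTIN8, a ratio of 1.28, and the widest was from SEPTIN5 to SEPTIN3, a ratio of 7.61. Among the 11599 genes tested, the DMSO level of SEPTIN2 stood above 97.5% of genes, that of SEPTIN9 above 96.6% and that of SEPTIN7 above 91.8%.

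**Figure D1:**
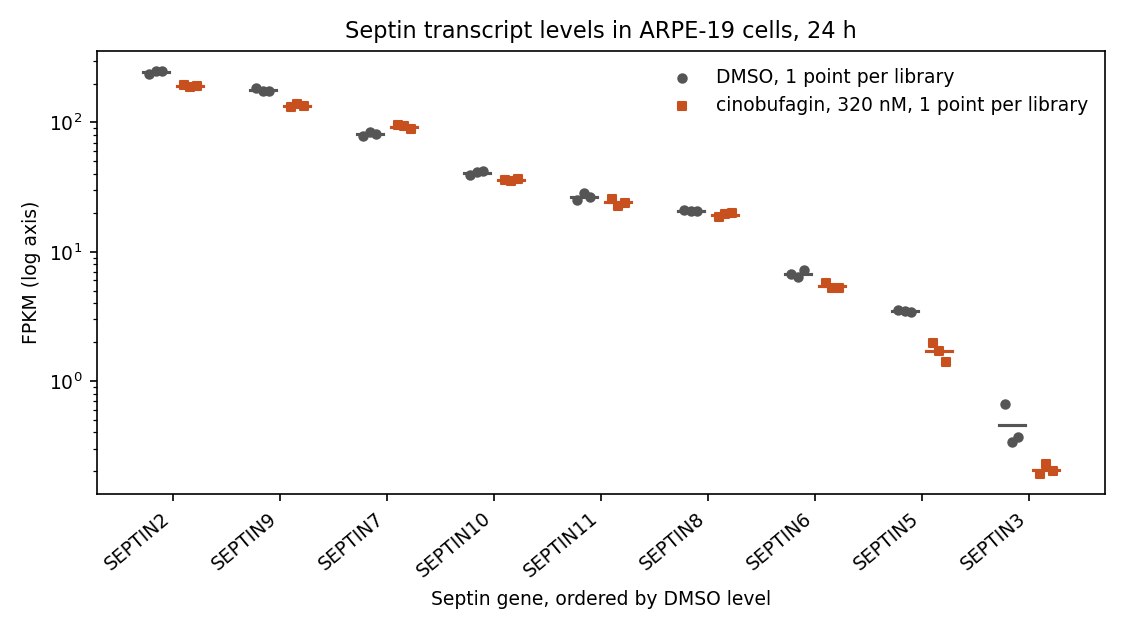
FPKM on a log axis for the 9 septin genes, ordered by DMSO level, with 1 point per library (3 DMSO, 3 cinobufagin) and a short line at each group mean. SEPTIN2 and SEPTIN9 lie lower in all 3 cinobufagin libraries, and SEPTIN7 lies higher in all 3.

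With cinobufagin the septin pool was smaller, and by value SEPTIN7 went the other way from the other members tested. The most abundant members, SEPTIN2 and SEPTIN9, were 1.29-fold and 1.33-fold lower. SEPTIN5 was 2.04-fold lower, and SEPTIN7 alone was higher, by 1.14-fold. By value, 7 of the 8 members tested were lower and 1 was higher, with a median log2 fold change of -0.23, where the median over all genes tested was 0.06. Of all genes tested, 43.5% were lower by value. Their median log2 fold change regardless of sign was 0.26, larger than that of SEPTIN7 (0.18). In RNA from whole cultures, fewer cells of a state and less RNA per cell cannot be told apart.

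The groups did not overlap in 7 of the 8 members tested, 6 with cinobufagin lower and 1 with it higher, where 70.8% of all genes tested did not overlap, 29.6% with cinobufagin lower and 41.2% with it higher. As the members were chosen with this comparison known, nothing is read from this count. Log2 fold changes are of FPKM + 1, cinobufagin minus DMSO, which understates the change of low genes. A gene was tested where at least 3 libraries reached 1 FPKM, which all members but SEPTIN3 did in all 6 libraries.

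SEPTIN2 (gene ID 4735, chromosome 2, 241315100 to 241354027 on GRCh38) was at 238.68, 250.57 and 248.42 FPKM in the DMSO libraries and at 193.46, 188.91 and 189.93 FPKM in the cinobufagin libraries. The lowest DMSO library stood above the highest cinobufagin library. The group means were 246 ± 6.34 and 191 ± 2.39 FPKM (SD, n = 3 each), and the log2 fold change was -0.36 (SE 0.04). The gene overlaps HDLBP, which lies on the opposite strand, in GENCODE 29. HDLBP was at 245 ± 4.25 and 252 ± 11 FPKM, short of the threshold of 0.05 (adjusted p = 0.413 by limma). The sources used here do not give the strand setting of the counting.

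SEPTIN5 (gene ID 5413, chromosome 22, 19714464 to 19724224), the other of the 9 genes that belongs to the SEPTIN2 group, was low in every library. Its values were 3.56, 3.48 and 3.39 FPKM in DMSO and 1.98, 1.72 and 1.41 FPKM in cinobufagin libraries. The groups did not overlap, and the log2 fold change of -0.73 (SE 0.09) was the largest in size among the members tested. With a pseudocount of 0.1 in place of 1 it was -1.0. The platelet glycoprotein gene GP1BB, which overlaps SEPTIN5 on the same strand and shares a read-through transcript with it, was at 0.567 ± 0.0981 and 0.310 ± 0.131 FPKM. The sources used here do not say how reads common to the 2 genes were divided.

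SEPTIN9 (gene ID 10801, chromosome 17, 77280569 to 77500596) can extend a rod to an octamer by standing at its centre. It was at 186.22, 176.45 and 176.41 FPKM in DMSO and at 131.72, 140.01 and 132.95 FPKM in cinobufagin libraries. All 3 cinobufagin values lay below the DMSO range, with means of 179.7 ± 5.65 and 135 ± 4.47 FPKM and a log2 fold change of -0.41 (SE 0.04). GENCODE 29 lists 16 complete coding transcripts of the gene, and the values, which are per gene, do not separate its isoforms. SEPTIN3 (gene ID 55964, chromosome 22, 41969475 to 41998221), of the same group, was at 0.66, 0.34 and 0.37 FPKM in DMSO and at 0.19, 0.23 and 0.20 FPKM in cinobufagin libraries. These values were separate between groups but below the filter, so SEPTIN3 entered no fit.

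The SEPTIN6 group, whose members can stand in for each other in a rod, had log2 fold changes of -0.28 to -0.10. SEPTIN6 (gene ID 23157, chromosome X, 119615724 to 119693370) was at 6.67, 6.33 and 7.26 FPKM in DMSO and at 5.74, 5.23 and 5.21 FPKM in cinobufagin libraries, a log2 fold change of -0.28 (SE 0.07). SEPTIN10 (gene ID 151011, chromosome 2, 109542982 to 109614206) was at 39.11, 41.66 and 41.97 and at 36.15, 35.44 and 36.37 FPKM, a log2 fold change of -0.18 (SE 0.04). The 2 treatments were separate in both genes, with cinobufagin lower.

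SEPTIN8 (gene ID 23176, chromosome 5, 132750817 to 132807241) was at 20.97, 20.70 and 20.78 FPKM in DMSO and at 18.58, 19.73 and 19.90 FPKM in cinobufagin libraries. Its groups were separate by less than 1 FPKM, and its log2 fold change was -0.10 (SE 0.05). SEPTIN11 (gene ID 55752, chromosome 4, 76949703 to 77040384) was at 25.10, 28.30 and 26.34 FPKM in DMSO and at 25.71, 22.59 and 23.86 FPKM in cinobufagin libraries. Here the groups overlapped, through DMSO replicate 1 and cinobufagin replicate 1, and the log2 fold change was -0.14 (SE 0.06).

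SEPTIN7 (gene ID 989, chromosome 7, 35800932 to 35907105) was at 78.91, 84.04 and 81.95 FPKM in DMSO and at 95.90, 93.62 and 89.20 FPKM in cinobufagin libraries. All 3 cinobufagin values stood above the DMSO range. The means were 81.6 ± 2.58 and 92.9 ± 3.41 FPKM, a log2 fold change of 0.18 (SE 0.04), which ranged from 0.14 to 0.23 over the alternatives. RefSeq lists 15 pseudogene entries of SEPTIN7 and 1 each of SEPTIN2 and SEPTIN10, and 0 of them are in the table. The sources used here do not say how reads from these copies were assigned.

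**Figure D2:**
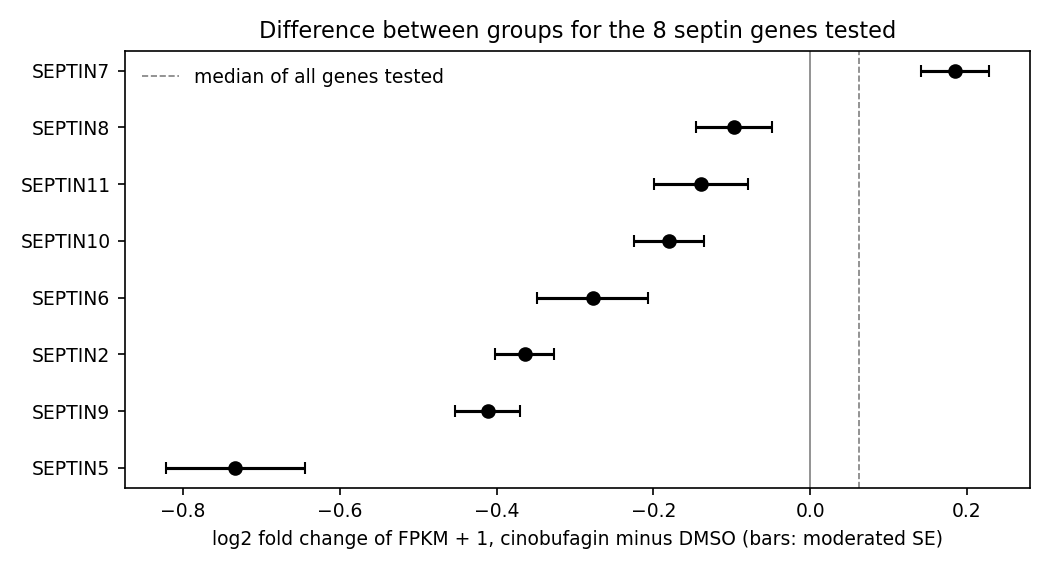
Log2 fold change of FPKM + 1 (cinobufagin minus DMSO) with the moderated standard error for the 8 septin genes tested, from 3 libraries per group. SEPTIN7, at 0.18, lies right of the dashed median of all genes tested (0.06), and the other genes lie left of 0, down to -0.73 for SEPTIN5.

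The family total, the sum over the 9 genes, was 599.88, 611.87 and 606.89 FPKM in DMSO and 509.43, 507.48 and 499.03 FPKM in cinobufagin libraries. The cinobufagin sums all lay below the DMSO sums, and their mean was 1.20-fold lower (606 ± 6.02 and 505 ± 5.53 FPKM, SD, n = 3 each). The make-up of the pool differed as well. The SEPTIN7 share was 13.2%, 13.7% and 13.5% in DMSO and 18.8%, 18.4% and 17.9% in cinobufagin libraries, which differed by 4.92 percentage points in the mean. The SEPTIN2 group, here SEPTIN2 and SEPTIN5 without SEPTIN4, went the other way, from 41.1% ± 0.649 to 38.1% ± 0.456. So did the SEPTIN3 group, almost all of it SEPTIN9, from 29.7% ± 1.24 to 26.7% ± 0.872. The SEPTIN6 group held 15.7% ± 0.319 of the sum in DMSO and 16.8% ± 0.390 in cinobufagin libraries. For each of the 4 groups the shares of the 2 treatments did not overlap, where 70.8% of all genes tested did not. The shares depend on each other and come from the values with which the members were chosen, so nothing further is read from this.

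Set against SEPTIN7, the level ratios of the other rod positions were lower with cinobufagin. The ratio of SEPTIN2 to SEPTIN7 was 3.02, 2.98 and 3.03 in DMSO and 2.02, 2.02 and 2.13 in cinobufagin libraries. For SEPTIN9 to SEPTIN7 it was 2.36, 2.10 and 2.15, and 1.37, 1.5 and 1.49. For the summed SEPTIN6 group to SEPTIN7 it was 1.16, 1.15 and 1.18, and 0.899, 0.886 and 0.957. Each ratio was separate between treatments, and that of the SEPTIN6 group passed from above 1 to below 1. The ratios recombine the member values given above and are no separate observation. These are ratios of transcript levels, and protein was not measured here.

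**Figure D3:**
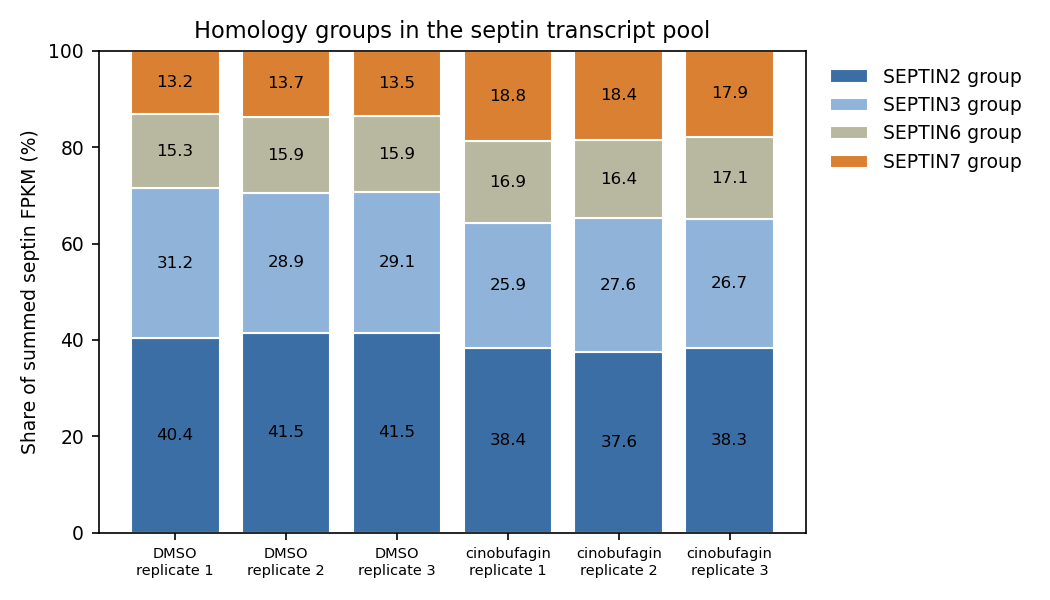
Share of the summed FPKM of the 9 septin genes held by each homology group, in percent, as 1 stacked bar per library (3 DMSO, 3 cinobufagin). The SEPTIN7 group takes 13.2% to 13.7% in the DMSO bars and 17.9% to 18.8% in the cinobufagin bars.

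The genes whose pattern over the 6 libraries was most like that of SEPTIN7, the member with the largest rise by value, were UBXN4, LEPROT, SNX1, SF3B1 and PPP3CB. Their Euclidean distance in log2 units, after centring each gene, was 0.0186 to 0.0439. Those most like SEPTIN5, the member with the largest fall by value, were FXYD5, ECSIT, PCOLCE2, EEF1B2 and DMKN, at 0.0864 to 0.107. The 2 treatments dominate such distances, so they say mainly that these genes had a like fold change.

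RefSeq promoter windows of 300 bases (250 before and 50 after a start, GRCh38.p14) were found for 7 of the 9 members, 21 windows in all. They are shown for the first listed start of the most abundant members, SEPTIN2 and SEPTIN9, which were lower, and SEPTIN7, which was higher. Capitals mark exact matches on either strand to GGGCGG, the GC box, or CCAAT, the CCAAT box.
SEPTIN2, chr2:241315105-241315404, plus strand: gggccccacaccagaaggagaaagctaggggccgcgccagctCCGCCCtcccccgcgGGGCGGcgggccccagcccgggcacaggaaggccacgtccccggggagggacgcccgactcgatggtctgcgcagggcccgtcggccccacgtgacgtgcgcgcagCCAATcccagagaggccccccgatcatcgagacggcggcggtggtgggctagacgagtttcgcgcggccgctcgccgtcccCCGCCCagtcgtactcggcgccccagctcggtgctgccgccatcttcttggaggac
SEPTIN9, chr17:77281249-77281548, plus strand: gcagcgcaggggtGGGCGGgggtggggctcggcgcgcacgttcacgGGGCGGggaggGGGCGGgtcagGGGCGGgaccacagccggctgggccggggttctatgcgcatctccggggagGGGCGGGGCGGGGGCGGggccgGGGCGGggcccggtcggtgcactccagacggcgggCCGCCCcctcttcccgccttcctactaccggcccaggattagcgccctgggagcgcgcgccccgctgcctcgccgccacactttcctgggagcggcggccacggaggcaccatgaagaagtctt
SEPTIN7, chr7:35800736-35801035, plus strand: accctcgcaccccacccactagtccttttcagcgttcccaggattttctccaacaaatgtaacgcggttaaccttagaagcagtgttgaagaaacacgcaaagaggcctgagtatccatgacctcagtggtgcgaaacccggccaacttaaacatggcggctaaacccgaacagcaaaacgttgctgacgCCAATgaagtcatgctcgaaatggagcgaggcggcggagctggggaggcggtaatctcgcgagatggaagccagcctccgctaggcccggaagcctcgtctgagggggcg
These windows held 3, 9 and 0 matches to the GC box, counting overlapping ones, and 1, 0 and 1 to the CCAAT box. The count depends on the start shown, since the other SEPTIN7 windows held 1 and 2 GC boxes and 4 of the 10 SEPTIN9 windows held 0. The GC box was in 15 of the 21 septin windows, beside 45.0% of all 35116 windows. Each of the 7 members had it in at least 1 window, but no share per gene was counted. SEPTIN9 alone supplied 10 of the 21 windows. The CCAAT box was in 6 of the 21 windows, which came from 4 members, beside 34.6% of all windows. TTTGAA (the form searched for the cell cycle homology region) was in 0 of the 21 windows, beside 15.2% of all windows. The cyclic AMP response element TGACGTCA was in 0 of the 21 windows, beside 1.85% of all windows. Several windows of 1 gene overlap, and GC-rich sequence holds the GC box more often. GC content was 74.7% in the SEPTIN2 window, 77.3% in the SEPTIN9 window and 56.3% in the SEPTIN7 window, with a median of 58.7% over all windows.

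The table also held SEPTIN1, SEPTIN4, SEPTIN12 and SEPTIN14. SEPTIN4, of the SEPTIN2 group, is known for a role in apoptosis and in the sperm annulus. It was at 22.14, 22.09 and 21.89 FPKM in DMSO and at 8.69, 9.34 and 10.12 FPKM in cinobufagin libraries. It was 2.35-fold lower with cinobufagin, with groups that did not overlap (a log2 change of -1.15 with an SE of 0.06). Like the 9 members, SEPTIN4 is given as a description without a test. An antisense gene, listed as SEPT4-AS1, overlaps SEPTIN4 in GENCODE 29, and without the strand setting reads of the pair cannot be told apart. For the 9 members, overlaps were sought with protein-coding genes alone. SEPTIN1 was at 0.20 to 0.88 FPKM, SEPTIN14 at 0.18 to 0.31 and the testis gene SEPTIN12 at 0 to 0.12 over the 6 libraries, below the filter.

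Genes of septin regulators and partners were described from 7 lists, and a gene was called to rise or fall at a limma-trend p under 0.05, adjusted by Benjamini-Hochberg over every gene tested. Of all genes tested, 67.7% were called, 39.2% higher and 28.4% lower, with a median log2 fold change of 0.06, and the counts and medians of the lists stand beside these. The lists were chosen with earlier results of these data known. Their counts, medians and p-values are therefore a description and test no list. CDC42 is a small GTPase whose effectors, the CDC42EP or BORG proteins, bind septins and shape their filaments. Of 5 such genes tested, 4 fell and the other one did not pass, with a list median of -0.20 on the log2 scale. CDC42EP3 fell from 7.71 ± 0.611 to 4.82 ± 0.248 FPKM (a log2 change of -0.58 with an SE of 0.07, adjusted p = 2.2e-05 by limma), and CDC42EP1 from 62.8 ± 4.15 to 44.9 ± 2.70 (a log2 change of -0.47 with an SE of 0.06, adjusted p = 1.92e-05 by limma). CDC42EP4 was at 19.5 ± 0.658 and 19.2 ± 0.810 FPKM, short of the threshold (adjusted p = 0.680 by limma). CDC42EP5 was at 0 to 0.19 FPKM and was not tested.

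The calls of CDC42EP2 and CDC42 depended on single libraries. CDC42EP2 fell by 0.20 on the log2 scale (adjusted p = 0.0188 by limma), but its adjusted p was 0.0680 without DMSO replicate 3 and 0.0853 without cinobufagin replicate 1. CDC42 fell by 0.12 (adjusted p = 0.0470 by limma), with groups that overlapped. Its adjusted p was 0.147 without DMSO replicate 2, 0.0831 without DMSO replicate 3, 0.134 without cinobufagin replicate 2 and 0.188 without cinobufagin replicate 3. It was also 0.0789 without the filter, 0.0961 without the mean-variance trend and 0.0958 after quantile normalization. Without DMSO replicate 3, 2 genes of this list fell.

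Genes of cytokinesis, the step of division at which septins act with the scaffold anillin, fell throughout. All 12 tested fell, beside 28.4% of all genes tested, with a list median of -1.37. The anillin gene ANLN was at 28.20, 32.78 and 30.73 FPKM in DMSO and at 10.82, 9.66 and 9.99 FPKM in cinobufagin libraries, and its name was picked with its values in view. It fell by 1.5 on the log2 scale (SE 0.06). The largest falls of the list were those of KIF20A, a kinesin of the central spindle (-2.20), the kinase PLK1 (-2.00), the microtubule bundler PRC1 (-1.85) and the abscission factor CEP55 (-1.70, adjusted p = 4.03e-10 by limma, the SEs of the 4 being 0.05 to 0.08). The part of a change in dividing cells in the septin values was not tested.

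Cortical actin and myosin genes, whose filaments septins bind, moved both ways. Of 18 tested, 6 rose, 9 fell and the remaining 3 did neither, with a list median of -0.15 on the log2 scale. Among the 9 that fell, the formin DIAPH3 went from 13.1 ± 1.21 to 4.78 ± 0.220 FPKM (a log2 change of -1.28 with an SE of 0.07, adjusted p = 3.8e-08 by limma), beta-actin, ACTB, fell by 0.60 and the non-muscle myosin heavy chain MYH9 fell by 0.54. The related formin DIAPH1 rose from 21.9 ± 1.23 to 33.0 ± 1.62 FPKM (a log2 change of 0.57 with an SE of 0.06, adjusted p = 2.75e-06 by limma). Of the myosin light chains, MYL12B was at 477 ± 13.8 and 483 ± 4.04 FPKM, short of the threshold (adjusted p = 0.691 by limma). MYL6, at 2079 ± 153 and 2231 ± 120.5 FPKM, stayed short of the threshold (adjusted p = 0.145 by limma). It passed without DMSO replicate 1 (0.0233), after quantile normalization (0.000413) and with the replicate number as a block (0.0394). The number that rose was 3 without cinobufagin replicate 1. Of the other libraries, leaving out 1 at a time gave 4 to 6. MYH14 was at 0 to 0.01 FPKM and was not tested.

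Genes of the exocyst, a vesicle-tethering complex that septins bind, were higher. Of 9 tested, 7 rose and 2 did not pass, with a list median of 0.28 on the log2 scale. EXOC7 rose from 55.0 ± 2.86 to 82.0 ± 1.94 FPKM (a log2 change of 0.57 with an SE of 0.05, adjusted p = 6.77e-07 by limma), EXOC8 by 0.49, EXOC2 by 0.35 and EXOC4 by 0.29 on the log2 scale. EXOC3, at 22.7 ± 1.54 and 23.8 ± 0.488 FPKM, and EXOC6, at 7.71 ± 0.428 and 7.94 ± 0.303, did not pass (adjusted p = 0.309 and 0.597 by limma).

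Store-operated calcium entry, in which human septins organise the membrane where the calcium sensor STIM1 meets the channel ORAI1, had 4 of its 5 genes higher and 1 lower, with a list median of 0.47 on the log2 scale. ORAI3 rose from 19.8 ± 1.14 to 33.7 ± 1.05 FPKM (a log2 change of 0.74 with an SE of 0.05, adjusted p = 2.36e-07 by limma), STIM2 rose by 0.52, STIM1 by 0.47 and ORAI1 by 0.27. ORAI2 fell from 7.95 ± 0.525 to 5.72 ± 0.0954 FPKM (a log2 change of -0.41 with an SE of 0.07, adjusted p = 0.000158 by limma).

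Genes of the ciliary gate, beside which septins form a barrier, mostly stayed short of the threshold. Of 8 tested, 1 rose and 7 did not pass, with a list median of -0.01 on the log2 scale. Tectonic 1, TCTN1, rose from 36.0 ± 2.27 to 42.6 ± 1.23 FPKM (a log2 change of 0.24 with an SE of 0.05, adjusted p = 0.00161 by limma). B9D1, at 28.4 ± 1.87 and 25.2 ± 3.8 FPKM, stayed short of the threshold (adjusted p = 0.105 by limma) but passed without cinobufagin replicate 3 (0.0190) and after median centring (0.0469). TCTN2 was at 12.6 ± 1.38 and 12.5 ± 0.630 FPKM (adjusted p = 0.929 by limma).

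Of 3 microtubule partners, 2 fell and 1 did not pass, with a list median of -0.09 on the log2 scale. The mitotic kinesin CENPE fell from 3.00 ± 0.957 to 1.04 ± 0.153 FPKM (a log2 change of -0.94 with an SE of 0.15, adjusted p = 0.000183 by limma). The microtubule-associated protein MAP4, whose binding to microtubules SEPTIN2 limits, fell by 0.09 (adjusted p = 0.0452 by limma). Its adjusted p was 0.0803 to 0.105 in each fit that left out 1 library other than DMSO replicate 3, 0.108 without the trend and 0.0871 after quantile normalization. The tubulin deacetylase HDAC6 did not pass (adjusted p = 0.463 by limma).

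**Figure D4:**
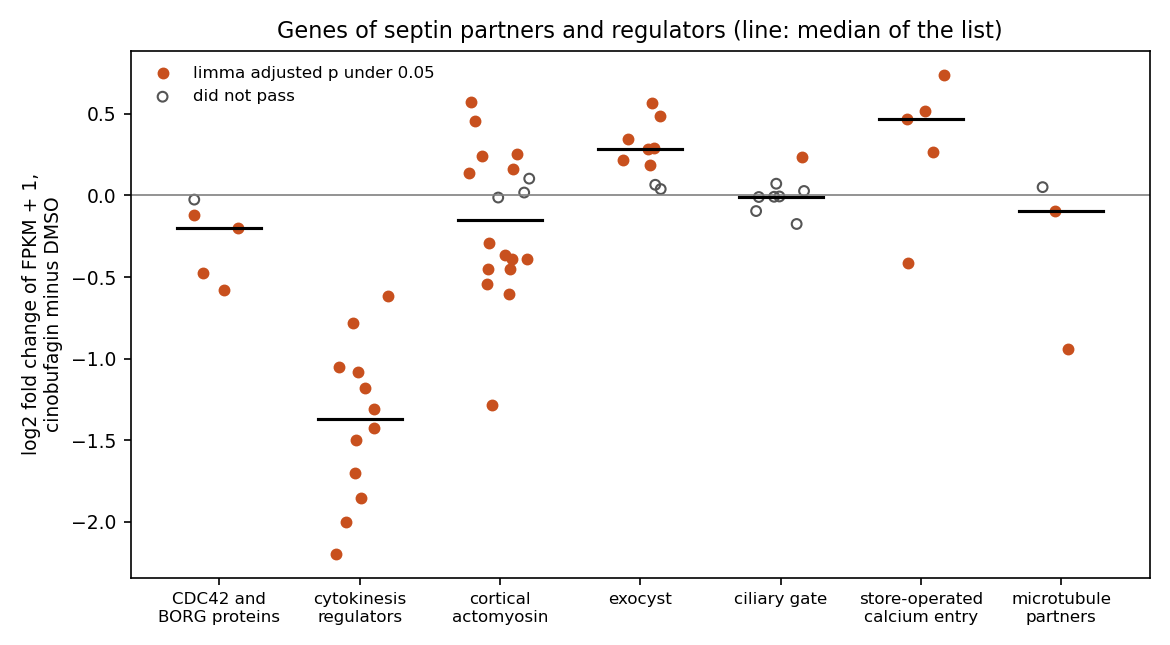
Log2 fold change of FPKM + 1 (cinobufagin minus DMSO, 3 libraries each) for each tested gene of 7 lists of septin partners and regulators, filled where the limma adjusted p was under 0.05, with a line at the median of the list. The 12 cytokinesis regulators all lie below 0 with a median of -1.37, and the 9 exocyst genes all lie above 0 with a median of 0.28, though EXOC6 was at -0.0027 after median centring.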

How the data were processed

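The deposited values are FPKM per gene to 2 decimals, per the file headers. RSEM 1.3.1, Bowtie2, DESeq2 1.4.5 and build GRCh38.p13 are listed, without their roles, in the submitters' processing notes. Columns named mock were taken as the DMSO libraries with that number, as only 2 groups exist. Entries without a gene ID (19) were left out. IDs were named from a RefSeq table of GRCh38.p14 (17881 of 17945 matched). Positions and coding sequences came from GENCODE 29 on GRCh38. Protein sequences were not used here, and coding bases were aligned in their place with biopython 1.88.

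FPKM depends on the library total, so a change in abundant genes shifts all values. The 11599 genes that reached 1 FPKM in 3 or more libraries were fitted as log2(FPKM + 1) with limma 3.58.1 (limma-trend) in R 4.3.3 without a block, and p-values were adjusted over all of them (Benjamini-Hochberg, called under 0.05). SE is limma's moderated standard error. The fit was tested on simulated data, and alternatives changed the filter, pseudocount, trend, scaling, block or libraries one at a time. The members and lists were chosen with earlier results of these data known. Named were all septins, every tested gene of lists of up to 5, and of longer lists the 4 largest called changes and the 2 most abundant genes not called. Genes most like a septin were the 5 nearest in distance. Figures used matplotlib 3.10.9 in Python 3.11.15.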

Additional observations from a re-analysis of the deposited data

How the results depend on the processing

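Across 13 alternatives to the fit (low-value filter, pseudocount, trend, scaling, block and leaving out each library), SEPTIN7 was higher and every other fitted gene of the 9 was lower. Over all genes, 3843 to 4589 were called higher and 2614 to 3695 lower.

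The log2 ratio of the summed septin FPKM was -0.26, -0.31 after scaling each library to its median and -0.29 over all 13 septin genes, an alternative chosen after seeing the data, under which the SEPTIN2 group share differed by -3.98 points in place of -3.04. The ciliary list had 1 lower gene after median centring and 0 to 1 with a library left out. The microtubule list had 1 lower gene, in place of 2, with a filter of 5 FPKM, without the trend, after quantile normalization and with the replicate block, and 1 to 2 with a library left out. With a library left out, the actomyosin list had 3 to 6 higher genes and the CDC42 list 2 to 4 lower. Among genes that did not pass, the sign turned for MYL12B (-0.024) and EXOC6 (-0.0027) after median centring, for CDC42EP4 with a library left out (-0.049 to 0.0072) and for TCTN2 (-0.059 to 0.074). The cause was not tested.

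Same-numbered libraries of the 2 groups did not deviate together (correlations of -0.049, -0.10 and -0.0091 across genes), so the numbers were not taken to pair them. The replicate block gave 4454 genes higher and 3236 lower, with an adjusted p by limma of 0.0717 for CDC42, 0.0927 for MAP4 and 0.0394 for MYL6, and it changed no other call of a named gene. Values to 2 decimals limit the precision of SEPTIN3 and other genes under 1 FPKM.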
